A study of Mus musculus with 84 samples.

Results

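Presynaptic vesicle release genes were examined as 40 genes chosen by symbol from a table of 43629 genes measured in the central amygdala (CeA), a nucleus of mainly inhibitory neurons. At a nerve terminal, synaptic vesicles dock at the active zone, are primed by Munc13 and RIM proteins, and fuse with the plasma membrane when SNARE proteins zip together after a calcium sensor of the synaptotagmin family binds calcium. Many of these proteins come as paralogs that different neurons use in different amounts, so bulk tissue reports both how much release machinery is present and which neurons it came from. Ethanol acts on transmitter release at inhibitory synapses of the CeA.

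RNA was sequenced from 84 outbred mice of the HS-CC stock (heterogeneous stock, Collaborative Cross), 43 females and 41 males. The median age was 15 weeks when testing began. Every animal in both groups had been moved through 5% to 10% ethanol and then chose between water and 10% ethanol for 13 weeks, with ethanol on offer until euthanasia, and a group without ethanol was not analysed here. Each mouse gave 1 library of poly(A) RNA, dissected by laser from stained sections of both sides. Families held up to 3 of the tested animals, which were therefore not fully independent.

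Libraries held 24118965 to 42036566 counts, with a median of 31573088.5, and all 40 genes had enough counts to be among the 16320 genes tested. Piccolo (Pclo) filled a pair of rows in the table. The row with more counts, ENSMUSG00000061601 (chromosome 5, 14514918 to 14860184, GRCm38), stands for Pclo, and ENSMUSG00000098239 (14861407 to 14863459), at its 3′ end, is given apart. CeA neuron markers were present, with medians of 350.4 CPM (counts scaled by library size) for Sst, 18.6 for Prkcd and 6.92 for Crh. So were markers of the neighbouring cortical and basolateral excitatory neurons: Slc17a7, the vesicular glutamate transporter of those cells, ran from 13.0 to 2404 CPM with a median of 1359, against 312 to 1003 CPM and a median of 491 for Gad1, the GABA-synthesizing enzyme. The sum of 9 excitatory markers ran from 22.7 to 2864 CPM, that of 8 striatal medium spiny neuron markers from 167.9 to 5629 CPM, and that of 8 general neuron markers from 3636 to 5186 CPM. In such bulk samples, fewer cells of a type and less RNA per cell cannot be told apart.

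The promoters of 5 members that moved in opposite directions with excitatory content (below) are printed here, so that the genes which rose (Stx1a, Sv2b, Bsn) can be read beside those which fell (Vamp1, Sv2c). Each is the RefSeq sequence just before the gene's start on GRCm38.p6, on the gene's strand, with capitals on matches to GGGCGG (the GC box), CGCATGCG (the core of the NRF-1 motif), TATAAA (the TATA box), TGACGTCA (the cAMP response element) or CAGATG (an E-box), on either strand.
Stx1a (chr5:135023232-135023481, plus strand): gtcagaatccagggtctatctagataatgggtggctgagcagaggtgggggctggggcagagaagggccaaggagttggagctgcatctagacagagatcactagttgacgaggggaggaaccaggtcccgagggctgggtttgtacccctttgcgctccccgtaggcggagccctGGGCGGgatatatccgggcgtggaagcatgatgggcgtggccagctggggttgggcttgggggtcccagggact
Sv2b (chr7:75309263-75309512, minus strand): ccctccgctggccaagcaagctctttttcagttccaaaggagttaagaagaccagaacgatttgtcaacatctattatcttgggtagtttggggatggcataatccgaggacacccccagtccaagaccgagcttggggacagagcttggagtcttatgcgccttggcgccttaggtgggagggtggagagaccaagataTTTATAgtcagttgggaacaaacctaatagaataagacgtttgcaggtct
Bsn (chr9:108190385-108190633, minus strand): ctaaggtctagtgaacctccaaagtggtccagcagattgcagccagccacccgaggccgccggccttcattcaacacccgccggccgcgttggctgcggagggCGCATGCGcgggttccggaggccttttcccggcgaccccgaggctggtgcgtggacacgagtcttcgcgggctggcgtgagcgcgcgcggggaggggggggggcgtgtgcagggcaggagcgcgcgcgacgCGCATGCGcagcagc
Vamp1 (chr6:125215331-125215550, plus strand): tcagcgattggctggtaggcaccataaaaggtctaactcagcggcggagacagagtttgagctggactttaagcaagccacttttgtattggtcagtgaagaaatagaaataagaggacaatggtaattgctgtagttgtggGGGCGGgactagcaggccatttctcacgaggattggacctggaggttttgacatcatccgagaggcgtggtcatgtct
Sv2c (chr13:96132578-96132827, minus strand): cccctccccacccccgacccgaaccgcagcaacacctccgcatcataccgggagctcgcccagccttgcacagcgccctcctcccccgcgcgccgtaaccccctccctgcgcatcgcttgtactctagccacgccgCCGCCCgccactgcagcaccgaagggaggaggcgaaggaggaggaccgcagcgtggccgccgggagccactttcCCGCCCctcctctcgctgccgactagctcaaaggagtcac
Windows of the 250 bases before the RefSeq start were searched for 32 of the 40 members. Each of these members gave the 1 window whose start lay nearest its 5′ end. The comparison took every window of all genes, whatever their level, so the 2 sets were not chosen alike. The lines printed for Vamp1 and Bsn are shorter, since bases that lie inside the gene were left out of them. GGGCGG was found in 23 of these 32 (71.9%), against 32.7% of 32851 windows of all genes. CGCATGCG was found in 3 (9.38%, against 1.55%), Syn1, Stxbp5 and Bsn, the last of which holds it at 2 places. TATAAA was found in 2, Sv2b and Rab3b (6.25%, against 12.4%), CAGATG in 2 (6.25%, against 14.4%) and TGACGTCA in 1, Syn1 (3.12%, against 1.55%). By slope on excitatory content (below), the GC box was in 10 of 18 risers with a window, in all 8 fallers and in 5 of the 6 that did not pass. The windows of members had a median GC content of 62.0%, against 52.4% for all windows, and GGGCGG is itself made of G and C alone.

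Levels were compared between members per kb of exon. The 40 genes together came to 1.25% to 2.34% of the scaled library size (TMM, over the genes tested), with a median of 1.84%. Their median level was 34.3 CPM per kb, against 4.99 over all genes tested. The vesicle SNARE synaptobrevin 2 (Vamp2) was highest at 356 CPM per kb. Synaptophysin (Syp, 315), the vesicle GTPase Rab3a (311), complexin 2 (Cplx2, 287) and the plasma membrane SNARE Snap25 (275) followed, and then complexin 1 (Cplx1, 234.6), synapsin 1 (Syn1, 213) and the fast calcium sensor Syt1 (173.8). Neighbours in this order had overlapping ranges, for example 257 to 498 CPM per kb for Vamp2 and 231 to 442 for Syp.

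Synapsin 3 (Syn3) had 0.624 CPM per kb, complexin 3 (Cplx3) 2.80, Munc13-2 (Unc13b) 2.91, Syt2 3.01, the vesicle glycoprotein Sv2c 3.78, Syt9 5.90, Munc13-3 (Unc13c) 9.38 and tomosyn (Stxbp5), which holds SNAREs in an inactive complex, 9.60. These were the 8 lowest members. Within families, Sv2a (141.96 CPM per kb) and Sv2b (83.7) exceeded Sv2c, and Unc13a (22.9) exceeded Unc13c and Unc13b. For Syn3, 1733 exonic bases are shared with Timp3 on the opposite strand, which had a median of 3993.5 counts against 245.5 for Syn3. Doc2a shares 951 of its 2803 exonic bases with Ino80e on the opposite strand, with medians of 2357.5 counts for Doc2a and 1346 for Ino80e. Whether the counting used strand is not given in the sources used here. The levels of Syn3 and Doc2a, and their slopes below, are therefore uncertain.

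**Figure D1:**
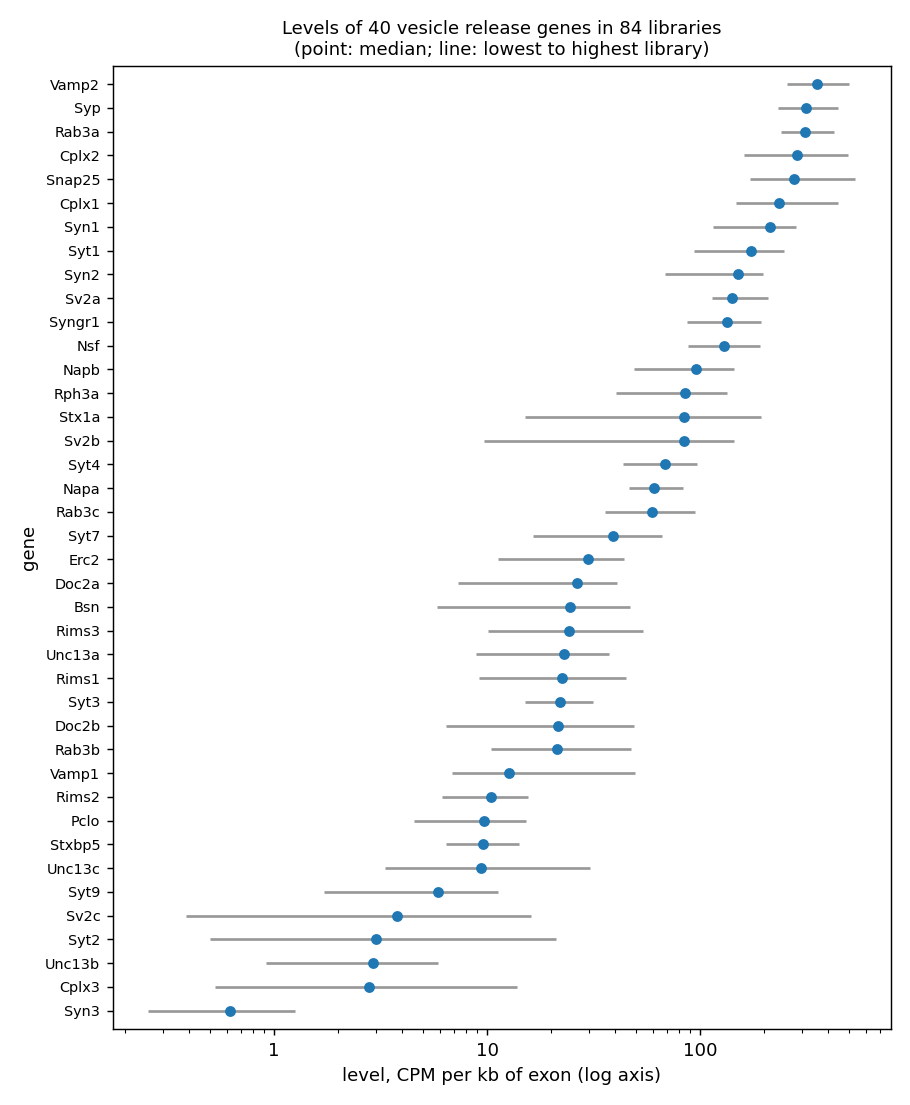
Level of each of the 40 genes in CPM per kb of exon (log axis), with a point at the median of 84 libraries and a line from the lowest to the highest library. Vamp2 lies at the top (356) and Syn3 at the bottom (0.624), and the longest lines belong to Syt2, Sv2c, Cplx3, Stx1a and Sv2b.

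Members differed in how far they varied between animals. Rab3a had the smallest standard deviation (SD) of log2 CPM (0.16), with 536 CPM in the lowest library, a median of 692 and 943 in the highest. Vamp2 (979.6, 1357 and 1899 CPM) and Sv2a (529, 658 and 966 CPM) were nearly as even. At the other end Syt2, a fast calcium sensor of brainstem, spinal and some inhibitory neurons, ran from 3.83 over a median of 22.96 to 160.3 CPM (SD 1.19). Sv2c, which is known from the striatum and basal forebrain, ran from 1.72 over 16.8 to 71.5 CPM (SD 1.11), and Cplx3 from 1.5 over 7.93 to 39.2 CPM (SD 0.97). Stx1a, the syntaxin of the plasma membrane, ran from 40.0 over 225.3 to 516 CPM (SD 0.81). Sv2b ran from 55.3 over 478 to 827 CPM (SD 0.78). The median SD of the members was 0.37, against 0.32 over all genes tested. The ranges of females and males overlapped for all of these genes.

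The 5 most variable members each had close partners elsewhere in the genome. Pearson's r over the 84 animals is a description here, since the partners were found by their r among 14129 genes. Sv2b went with Slc17a7 (0.96), with Neurod2, a transcription factor of excitatory forebrain neurons (0.96), and with Rtn4rl2 (0.95), Sprn (0.94) and Rtn4r (0.94). Stx1a went with Olfm1 (0.94), Gm11549 (0.94), E130012A19Rik (0.93), Dgkz (0.93) and Tbr1, a transcription factor of cortical and amygdalar excitatory neurons (0.92). Syt2 went with Sgpp2 (0.92), G6pdx (0.90), Prima1, which anchors acetylcholinesterase (0.90), and Slc10a4, a vesicle protein of cholinergic and monoaminergic neurons (0.90). Sv2c went with Tbl1x (0.90), 4932418E24Rik (0.87), Ankdd1a (0.86), Cntnap2 (0.85) and Specc1l (0.83). Cplx3 had looser partners: Arhgap25 (0.74), Nxph3 (0.70), 9130024F11Rik (0.70), Hs3st2 (0.70) and Prss12 (0.68).

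Members were then correlated with each other over the 84 animals, in 780 pairs. Of these, 26.5% had an r of at least 0.5, against 3.55% of all 133163040 pairs of genes tested, and 22 (2.82%) had an r of -0.5 or below, against 2.81%. The median r was 0.21 over member pairs and 0.00 over all pairs. Pairs share genes and libraries and are not independent. With sex, run of sample-sheet numbers and the 3 marker scores defined below taken out, 16.4% of the member pairs had an r of at least 0.5. The share over all pairs of genes was not computed after this adjustment, so 3.55% is not its counterpart.

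The highest r joined proteins of the active zone with the slow calcium sensor Syt7. Unc13a (Munc13-1, the main priming factor) and Syt7 had r = 0.93 and Spearman's rho = 0.93 (2-sided permutation p = 1e-05, the smallest that 100000 permutations give, adjusted 3.12e-05 over 780 pairs). Leaving out the 2 animals with Unc13a farthest from its median gave r = 0.92, and the 4 runs taken singly gave 0.92, 0.89, 0.96 and 0.95. Unc13a and the scaffold bassoon (Bsn) followed with r = 0.91 (rho = 0.90), Rims1 (the scaffold RIM1) and Bsn with 0.91 (0.87), Bsn and Syt7 with 0.90 (0.88), Rims1 and the scaffold Erc2 with 0.89 (0.85) and Rims1 and Syt7 with 0.89 (0.85). These 5 pairs had the same p and adjusted p, with r between 0.87 and 0.90 without the 2 extreme animals. Over all 6 pairs the lowest value within a run was 0.77. After sex, run and the marker scores, Unc13a and Syt7 kept r = 0.86 and Rims1 and Erc2 r = 0.68. Unc13a, Syt7, Bsn, Rims1 and Erc2 all moved against the ratio of the Pclo rows (below).

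The lowest r set Syt2 and the vesicle SNARE Vamp1 against Syn2 and Sv2b. Syt2 and Syn2 had r = -0.83 (rho = -0.76), Vamp1 and Sv2b -0.76 (-0.48), Syn2 and Vamp1 -0.75 (-0.63), Syt2 and Sv2b -0.67 (-0.56), Syn2 and Unc13c -0.65 (-0.59) and Stx1a and Vamp1 -0.64 (-0.38). All 6 had a permutation p of 1e-05 for r, adjusted 3.12e-05. Without the 2 extreme animals r lay between -0.82 and -0.55, and within runs between -0.89 and -0.35. After sex, run and the marker scores, r was -0.58 for Syt2 and Syn2 and -0.03 for Vamp1 and Sv2b. For Stx1a and Vamp1 it turned to 0.26. Syt2 and Vamp1 themselves went together (r = 0.85, rho = 0.81), also after that adjustment (0.64).

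**Figure D2:**
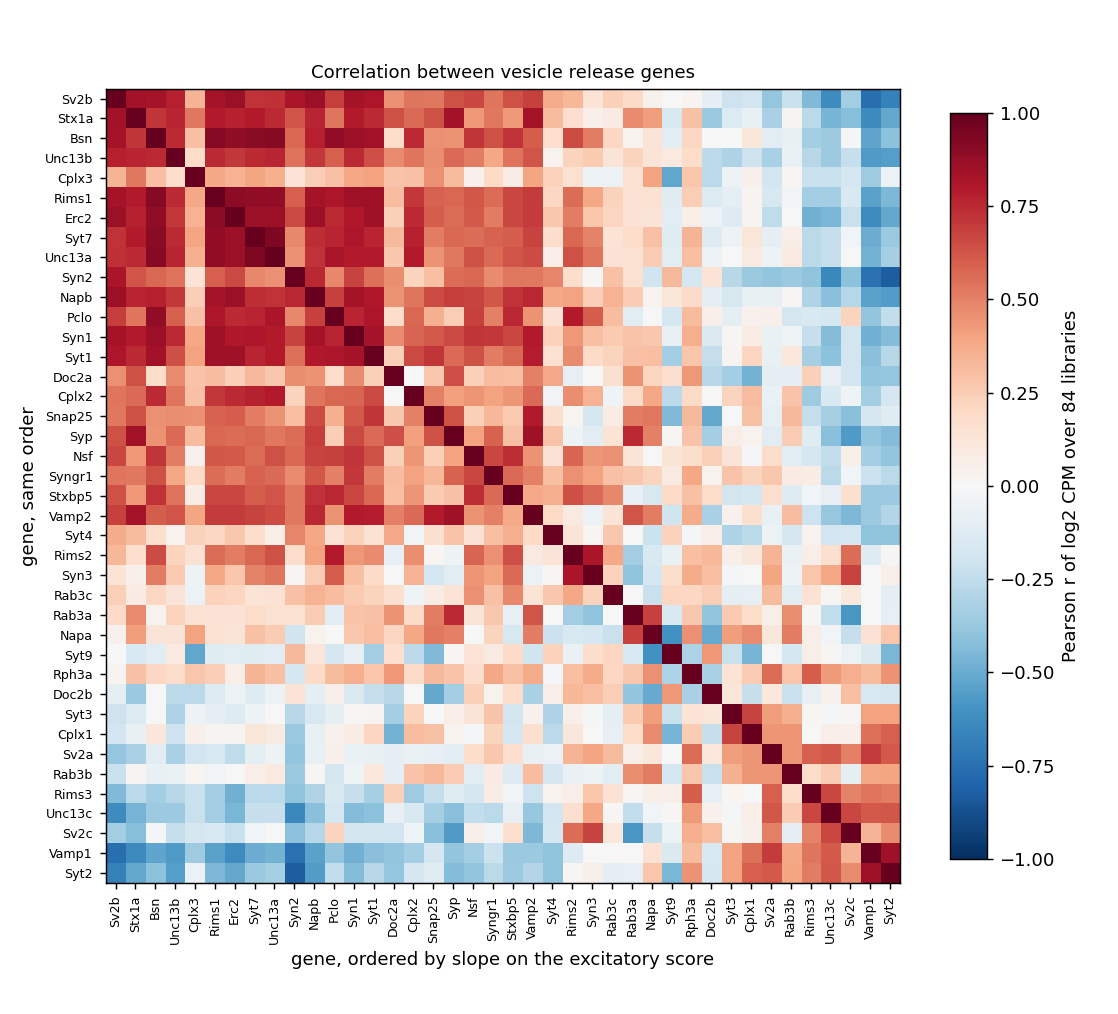
Pearson r of log2 CPM over 84 libraries for each pair of the 40 genes, ordered on both axes by slope on the excitatory marker score; red is positive, blue negative. A red block at the upper left holds Rims1, Erc2, Syt7, Unc13a and Bsn (r up to 0.93), and Syt2 and Vamp1 at the lower right are blue against those 5 (r from -0.33 to -0.63).

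To ask which members go with which cells, each was fitted against marker scores. A score is the mean of the z-scores of a marker list in a library, scaled to an SD of 1, so slopes are log2 changes per SD ± SE from edgeR's quasi-likelihood test with Benjamini-Hochberg adjustment over 16320 genes. The excitatory score (9 genes, led by Slc17a7) and the inhibitory score (10 genes, with Gad1, Gad2 and Slc32a1) ran against each other (r = -0.74, rho = -0.81, permutation p = 1e-05, adjusted 2e-05 over 6 relations; -0.78 without the 2 extreme animals; -0.80, -0.71, -0.72 and -0.74 within runs). The oligodendrocyte score (8 genes) had r = -0.73 with the excitatory and 0.65 with the inhibitory score, with the same p. Animals low in excitatory content were thus mostly high in the other 2 scores, which rose together.

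With excitatory content, 32 of 40 members passed, 24 rising and 8 falling, where 47.6% of all genes passed, 24% rising and 23.6% falling. The median slope of the members was 0.12, against 0.00 over all genes. Sv2b (0.74 ± 0.030, adjusted p = 5.4e-37) and Stx1a (0.72 ± 0.045, 1.6e-24) rose most. Bsn (0.49 ± 0.047), Unc13b (0.39 ± 0.046), Cplx3 (0.39 ± 0.098) and Rims1 (0.36 ± 0.033) followed, with adjusted p of 0.00053 or less. Syt2 (-0.81 ± 0.090, adjusted p = 1.8e-12), Vamp1 (-0.46 ± 0.035, 3.9e-20), Sv2c (-0.45 ± 0.12, 0.00087), Unc13c (-0.44 ± 0.051, 1.1e-11) and Rims3 (-0.22 ± 0.048, 7.9e-05) fell. Rab3b was the sixth faller (-0.11 ± 0.042, adjusted p = 0.031), with -0.00 and an adjusted p of 0.98 once the 5 libraries lowest in the score were left out.

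Of 9 active zone genes 7 rose, with Erc2 (0.32), Unc13a (0.30), Pclo (0.24) and Rims2 (0.09) beside those above, and 2 fell, Unc13c and Rims3. Of 4 SNARE genes Stx1a, Snap25 (0.16) and Vamp2 (0.12) rose and Vamp1 fell. Among 3 genes that take spent SNARE complexes apart, Napb (0.25) and Nsf (0.14) rose and Napa (0.02) did not pass. Of the complexins and tomosyn, Cplx3, Cplx2 (0.16) and Stxbp5 (0.12) rose. Cplx1 fell (-0.08, adjusted p = 0.049) but had a slope of 0.05 (adjusted p = 0.45) without the 5 libraries lowest in the score. Of 8 genes of the synaptotagmin and Doc2 families Syt7 (0.30), Syt1 (0.22), Doc2a (0.22) and Syt4 (0.10) rose and Syt2 fell. Doc2b (-0.02), Syt9 (0.01) and Syt3 (-0.04) did not pass. Of 12 vesicle proteins Sv2b, Syn2 (0.27), Syn1 (0.23), Syp (0.15) and Syngr1 (0.13) rose, while Sv2c, Rab3b and Sv2a (-0.08) fell. Syn3 (0.06), Rab3c (0.05), Rab3a (0.03) and the Rab3 effector Rph3a (0.01) did not pass. The SV2, Munc13, RIM and synaptobrevin families each had members in both directions.

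**Figure D3:**
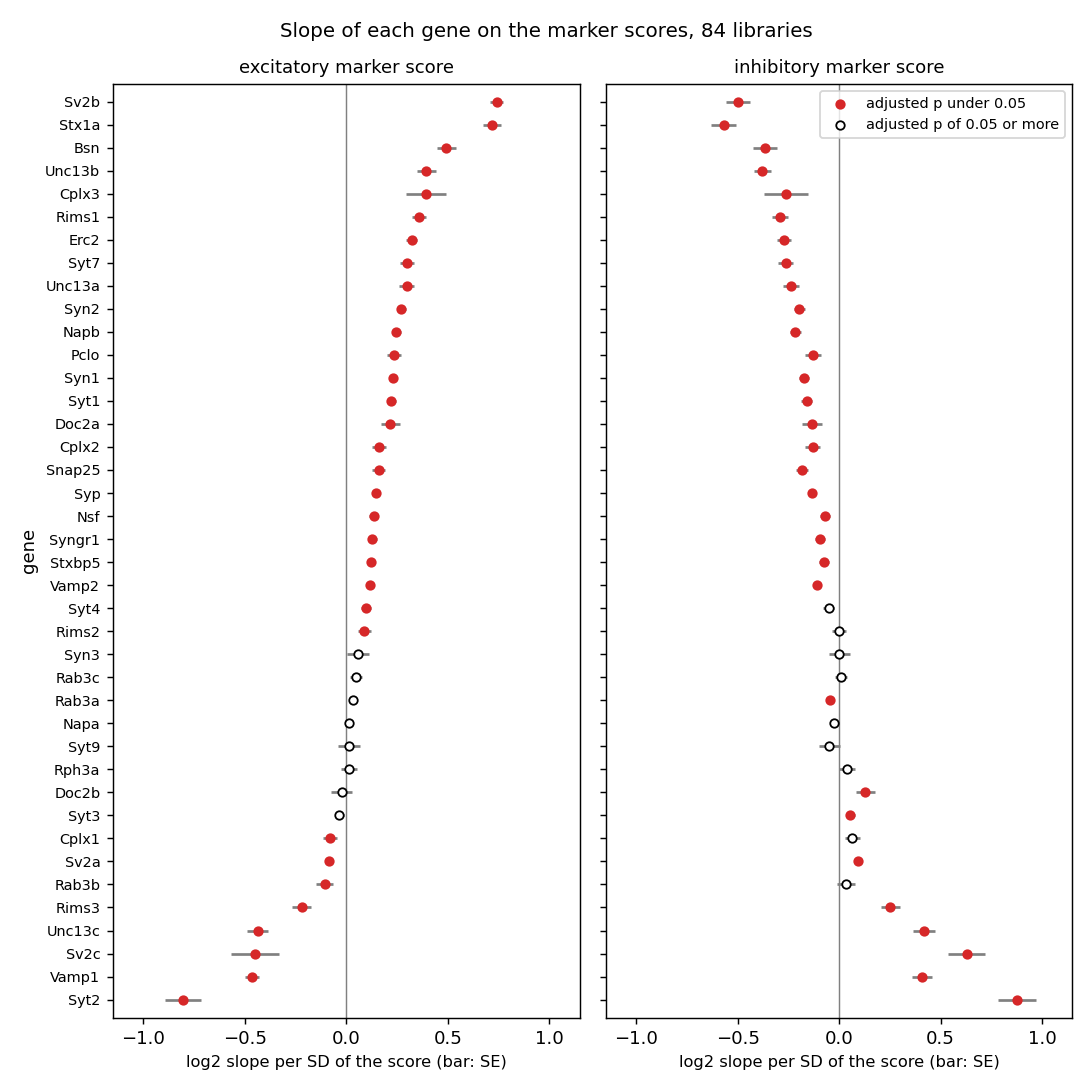
Slope of each gene, as log2 change per SD of the excitatory (left) and inhibitory (right) marker score over 84 libraries, with bars for SE and filled points for an adjusted p under 0.05. The order from Sv2b (0.74) to Syt2 (-0.81) on the left is nearly reversed on the right, where Stx1a is lowest (-0.57) and Syt2 highest (0.88).

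Single libraries showed the same split. Female replicate 19 had the lowest excitatory score, with 13.0 CPM of Slc17a7, 1003 of Gad1 and 11016 of the myelin gene Mbp. It held the lowest Sv2b (55.3 CPM) and Stx1a (40.0), and the highest Vamp1 (433.5) and Syt2 (160.3). Male replicate 24 had the highest score, with 2330.4 CPM of Slc17a7, 649 of Sv2b, 444 of Stx1a, 117 of Vamp1 and 28.2 of Syt2. Without the 5 libraries lowest in the score, 29 members passed, 23 rising and 6 falling. Of all genes 36.2% passed in that fit, 18.2% rising and 18.1% falling. Doc2a (0.08, adjusted p = 0.35) and Rims2 (0.08, 0.21) were then no longer among the members called, nor were Cplx1 and Rab3b. Rab3a, which had not passed over all 84 libraries, was newly among the risers (0.07, adjusted p = 0.029).

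**Figure D4:**
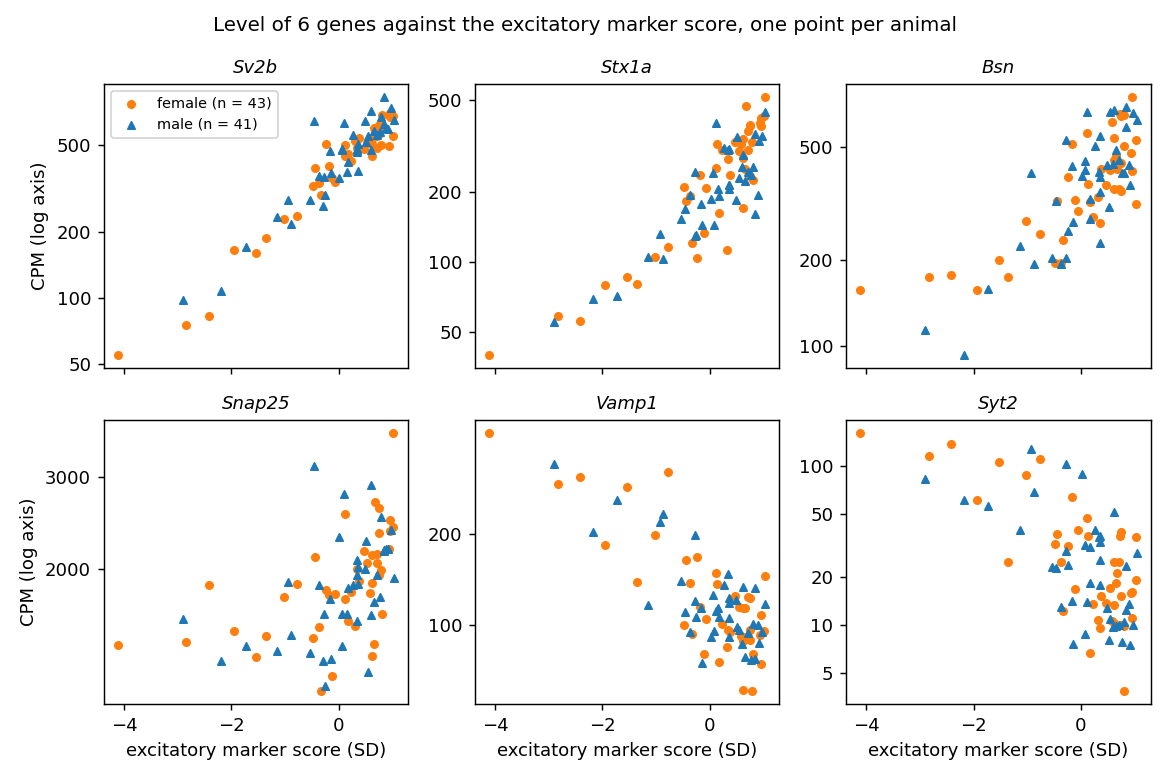
CPM (log axis) of 6 genes against the excitatory marker score (in SD), 1 point per animal, circles for 43 females and triangles for 41 males. Sv2b and Stx1a climb along the whole score from 55.3 and 40.0 CPM in the lowest library, Bsn and Snap25 climb with more scatter, and Vamp1 and Syt2 fall.

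With inhibitory content, 31 of 40 members passed, 8 rising and 23 falling, where 38.2% of all genes passed, 18.8% rising and 19.3% falling. Syt2 (0.88 ± 0.094, adjusted p = 1.5e-12), Sv2c (0.63 ± 0.092, 2.7e-08), Unc13c (0.42 ± 0.054, 9.5e-10), Vamp1 (0.41 ± 0.048, 5.1e-11), Rims3 (0.25 ± 0.045, 2.6e-06) and Doc2b (0.13 ± 0.046, 0.019) rose most. Stx1a (-0.57 ± 0.061), Sv2b (-0.50 ± 0.059), Unc13b (-0.38 ± 0.042), Bsn (-0.37 ± 0.058), Rims1 (-0.29 ± 0.039) and Erc2 (-0.27 ± 0.033) fell most, with adjusted p of 1.8e-07 or less. Doc2b no longer passed without the 5 libraries highest in the score (0.11, adjusted p = 0.08).

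The scores were then put into a single fit to separate them as far as they vary apart. Excitatory content beside inhibitory content was passed by 28 members (24 rising, 4 falling), where 31.9% of all genes passed, 17.5% rising and 14.5% falling. Sv2b (0.71 ± 0.041), Stx1a (0.61 ± 0.062), Bsn (0.45 ± 0.066), Cplx3 (0.45 ± 0.14), Rims1 (0.30 ± 0.046) and Pclo (0.29 ± 0.048) led the risers, with adjusted p of 0.011 or less. The fallers were Vamp1 (-0.42 ± 0.055, adjusted p = 2.9e-09), Syt2 (-0.40 ± 0.13, 0.015), Unc13c (-0.29 ± 0.075, 0.0016) and Rab3b (-0.19 ± 0.064, 0.016). Syt2 and Rab3b no longer passed without the 5 libraries lowest in the score (adjusted p = 0.24 and 0.42), where 20 members rose and 2 fell, against 11.1% and 8.39% of all genes. With the defining markers alone 27 rose and 1 fell, against 21.1% and 16.2%.

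Inhibitory content beside excitatory content was passed by 4 members, 3 rising and 1 falling, where 5.64% of all genes passed, 4.03% rising and 1.61% falling. Sv2c (0.74 ± 0.14, adjusted p = 0.00015), Syt2 (0.53 ± 0.15, 0.018) and Doc2b (0.24 ± 0.065, 0.013) rose and Unc13b (-0.23 ± 0.057, 0.0054) fell. Sv2c had a slope of 0.16 on the excitatory score in that fit (adjusted p = 0.43). Vamp1 had 0.06 on the inhibitory score (0.57). The count was 8 with run as a covariate, where 7.1% of all genes passed, and 14 with scores from the defining markers alone, where 23% did. Syt2 did not pass in limma-voom (0.40, adjusted p = 0.065). Doc2b did not pass without the 5 libraries highest in the score (0.22, 0.054), and neither Doc2b (0.15, 0.096) nor Unc13b (-0.11, 0.11) passed with the defining markers alone.

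With oligodendrocyte content, 31 members passed (7 rising, 24 falling), where 46.2% of all genes passed, 23.4% rising and 22.8% falling. Syt2 (0.95 ± 0.089), Vamp1 (0.45 ± 0.041), Sv2c (0.41 ± 0.11), Unc13c (0.33 ± 0.058), Rims3 (0.20 ± 0.048) and Cplx1 (0.10 ± 0.036) rose most, with adjusted p of 0.017 or less. Sv2b (-0.50 ± 0.064), Stx1a (-0.47 ± 0.077), Bsn (-0.41 ± 0.058), Unc13b (-0.31 ± 0.052), Rims1 (-0.30 ± 0.041) and Erc2 (-0.29 ± 0.032) fell most, with adjusted p of 5.7e-07 or less. Cplx1 no longer passed without the 5 libraries highest (adjusted p = 0.085) or lowest (0.074) in the score. Myelin content moved with the other scores, and its own part in these slopes was not tested.

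Scores of the neighbouring striatum and of the CeA itself were added after the data had been seen. With striatal content 18 members passed, 8 rising and 10 falling, where 29.7% of all genes passed, 13.9% rising and 15.7% falling. Syt2 (0.76 ± 0.096, adjusted p = 6e-10) and Sv2c (0.59 ± 0.099, 1.4e-06) rose most, before Unc13c (0.32), Cplx3 (0.31), Vamp1 (0.22) and Rph3a (0.13). Syt9, a sensor found in striatum and limbic regions, fell most (-0.32 ± 0.041, 7e-10), followed by Sv2b (-0.24), Syn2 (-0.20), Unc13b (-0.17), Napb (-0.13) and Syngr1 (-0.08). Cplx3 did not pass in limma-voom (0.21, adjusted p = 0.13) or without the 5 libraries highest in the score (0.27, 0.097). With CeA content (7 genes, such as Prkcd and Sst) 20 members passed, 0 rising at an adjusted p under 0.05 in edgeR and 20 falling, where 31.2% of all genes passed, 15.3% rising and 15.9% falling. DESeq2 also called 0 rising and limma-voom 2, counts for which the shares of all genes are not given here. The 3′ row of Pclo, which is not counted among the members, rose in edgeR (0.11, adjusted p = 0.0043). Bsn (-0.35 ± 0.055, adjusted p = 1.3e-06), Sv2b (-0.27), Unc13b (-0.25), Stx1a (-0.25), Unc13a (-0.23) and Rims1 (-0.23) fell most. Stx1a did not pass with run as a covariate (-0.22, adjusted p = 0.058). Syt2 (-0.00 ± 0.14) and Vamp1 (0.04 ± 0.070), which rose with general inhibitory markers, did not pass with CeA markers (adjusted p = 0.99 and 0.73); the difference between these slopes was not tested.

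The other genes of the release pathway were taken from 4 lists of 65 genes, of which 64 were tested. With excitatory content 39 rose and 8 fell, where 24% of all genes rose and 23.6% fell. Among the largest slopes were Syt17 (0.68 ± 0.05) and the vesicle GTPase Rab3d (0.51 ± 0.03) upwards and gamma-synuclein (Sncg, -0.69 ± 0.07), Syt6 (-0.47 ± 0.09) and Doc2g (-0.26 ± 0.06) downwards. Active zone genes rose in 9 of 14 and endocytosis genes in 9 of 13. With inhibitory content 7 rose and 30 fell, where 18.8% of all genes rose and 19.3% fell, Syt6 (0.65 ± 0.07), Sncg (0.54 ± 0.08) and the liprin Ppfia4 (0.24 ± 0.03) rising most and Syt17 (-0.52 ± 0.07) and Rab3d (-0.43 ± 0.04) falling most. Syt6 rose with striatal content too (0.77 ± 0.04). Paralogs therefore also split by content outside the 40 members, in the synaptotagmin family. For preference and sex edgeR called 0 of the 64 in each comparison, with 0 to 5 of them at an unadjusted p under 0.05, against 1.65% to 8.67% of all genes.

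Relations to drinking were tested next, which was the question of the study. Preference is the share of ethanol solution in all fluid drunk, and slopes are log2 changes per 0.5 rise in it. For mean preference over 13 weeks in all 84 animals, 0 of 40 members passed in edgeR, DESeq2 or limma-voom, where 0% of all genes passed. At an unadjusted p under 0.05 edgeR had 0 members, against 3.94% of all genes. Slopes were above 0 in 20 members and below 0 in 20, and above 0 in 12 without the 5 libraries lowest in excitatory score. The smallest p belonged to Sv2a (-0.10 ± 0.06, p = 0.105), Rab3c (-0.14 ± 0.09, 0.116), Unc13b (0.26 ± 0.18, 0.145), Doc2b (-0.21 ± 0.15, 0.149) and Unc13c (-0.31 ± 0.22, 0.164), all with an edgeR adjusted p of 1. Median Sv2a was 708 CPM in the 21 animals with mean preference of 0.0262 to 0.115 and 638 in the 21 with 0.362 to 0.759, and the ranges, 568 to 851 and 549 to 832, overlapped almost wholly. The Doc2b slope turned to 0.01 with the content scores as covariates.

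In females, 2 members had an unadjusted p under 0.05, against 6.95% of all genes, and 0 passed, where 0% of all genes passed. Sv2a (-0.18 ± 0.08, p = 0.0323), Unc13c (-0.64 ± 0.29, 0.033), Rab3c (-0.24 ± 0.12, 0.0502), Syt2 (-1.10 ± 0.56, 0.0543) and Unc13b (0.44 ± 0.23, 0.0652) came first, with edgeR adjusted p from 0.631 to 0.775. In males 0 passed, where 0% of all genes did, and 0 had an unadjusted p under 0.05 (1.65% of all genes). Syn3 (0.30 ± 0.26, p = 0.248), Snap25 (0.19 ± 0.18), Doc2b (-0.20 ± 0.21), Rab3b (0.21 ± 0.23) and Rims1 (0.23 ± 0.26) came first. The difference between the sexes' slopes was called for 0 members in edgeR, where 0% of all genes passed, with 0 at an unadjusted p under 0.05 (3.24% of all genes). Its smallest p were those of Syn3 (male minus female 0.55 ± 0.33, p = 0.0993), Vamp1 (0.66 ± 0.40), Syt2 (1.28 ± 0.79), Unc13c (0.69 ± 0.44) and Rims2 (0.34 ± 0.22), all adjusted 0.999.

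For week 1 preference, the first choice of ethanol, 0 members passed in all animals, where 0.0306% of all genes did, and 2 had an unadjusted p under 0.05 (3.25% of all genes). Doc2b, a calcium sensor for spontaneous release, sloped down (-0.36 ± 0.14, p = 0.011), and Snap25 (0.22 ± 0.10, 0.0395), Syn1 (0.17 ± 0.09), Syt1 (0.17 ± 0.09) and Napb (0.17 ± 0.10) sloped up, all with an edgeR adjusted p of 1. In females 0 passed, where 0% of all genes did, and 3 had an unadjusted p under 0.05 (2.26% of all genes): Doc2b (-0.51 ± 0.21, p = 0.017), Rab3c (-0.26 ± 0.12, 0.0405) and Syt3 (0.17 ± 0.08, 0.0494), before Syn1 (0.24 ± 0.13) and Syt1 (0.19 ± 0.13). In males 0 passed, where 0.0368% of all genes did, and 1 had an unadjusted p under 0.05 (5.17% of all genes), Snap25 (0.31 ± 0.14, p = 0.0306). Erc2 (0.34 ± 0.19), Syn3 (0.39 ± 0.22), Napb (0.23 ± 0.14) and Stxbp5 (0.14 ± 0.10) came next. Without male replicate 39, edgeR called 0 genes of all those tested (5 with it for all animals, 6 for males), and in the fit of all animals 1 member had an unadjusted p under 0.05 (1.73% of all genes).

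For week 13 preference, closest to dissection, 0 members passed in all animals, where 0% of all genes did, and 3 had an unadjusted p under 0.05 (6% of all genes). They were Unc13b (0.33 ± 0.13, p = 0.0145), Vamp1 (-0.39 ± 0.16, 0.0154) and Sv2a (-0.10 ± 0.05, 0.0331), with edgeR adjusted p of 0.664, 0.664 and 0.76. Syt2 (-0.59 ± 0.32) and Syn1 (0.13 ± 0.08) came next. In females 0 passed, where 0.0368% of all genes did. There Rab3b (-0.32 ± 0.14, p = 0.0243), Syt2 (-0.85 ± 0.41, 0.0418) and Unc13b (0.37 ± 0.18, 0.0499) had an unadjusted p under 0.05 (8.67% of all genes), before Sv2a (-0.12 ± 0.06) and Vamp1 (-0.41 ± 0.23). In males 0 passed, where 0% of all genes did, and 0 had an unadjusted p under 0.05 (3.74% of all genes). Cplx2 (0.26 ± 0.14, p = 0.0629), Vamp1 (-0.35 ± 0.21), Snap25 (0.21 ± 0.13), Unc13b (0.30 ± 0.19) and Syt7 (0.26 ± 0.17) came first. DESeq2 and limma-voom called 0 members in each of these preference fits.

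Ethanol intake in g/kg was tried in place of preference, and edgeR again called 0 members in each of the 9 fits. Over all genes it called 1.26% for the 13-week mean in females, where preference called 0%, and 3.5% for week 13 in females, where preference called 0.0368%. For week 13 in all animals it called 0.411% against 0%. At an unadjusted p under 0.05 there were 7 members for the mean in females (9.61% of all genes), 7 for week 13 in all animals (12.7%), 6 for week 13 in females (12.6%) and 4 for the mean in all animals (7.87%).

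Beside these slopes stands the relation of content to preference. Mean preference had r = 0.13 with the excitatory score (rho = 0.11, permutation p = 0.229, adjusted 0.274), -0.20 with the inhibitory score (rho = -0.21, p = 0.0655, adjusted 0.0983) and -0.00 with the oligodendrocyte score (p = 0.984). Without the 2 extreme animals they were 0.16, -0.28 and -0.06. Within runs the inhibitory relation was -0.17, -0.55, -0.14 and -0.21.

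**Figure D5:**
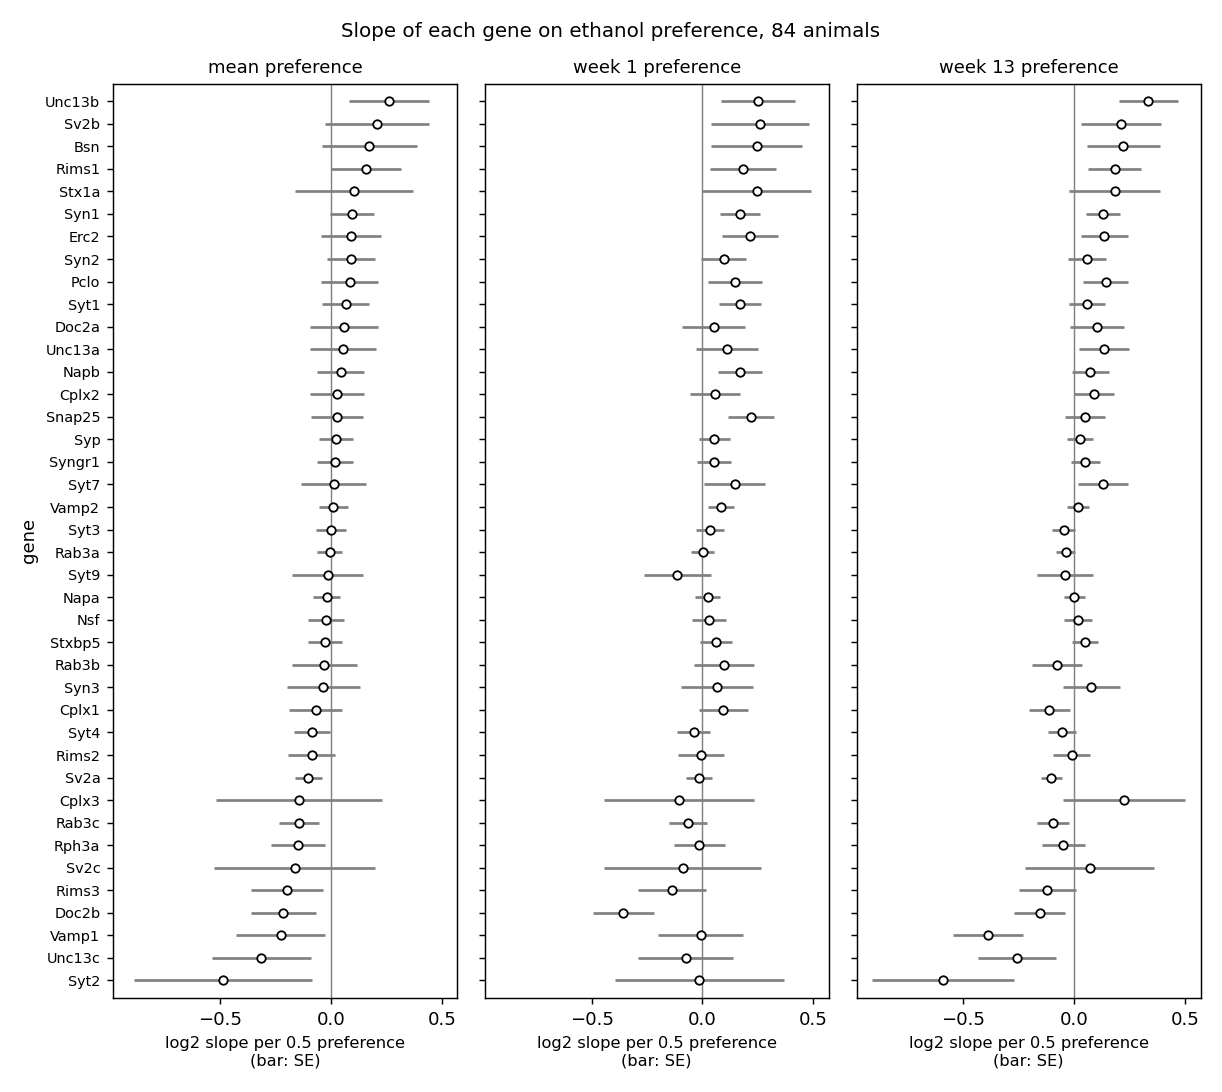
Slope of each gene on mean, week 1 and week 13 preference in 84 animals, as log2 change per 0.5 rise with bars for SE; every point is open because no adjusted p was under 0.05. Unc13b (0.26, mean preference) is at the top and Syt2, with a wide SE, at the bottom of the mean preference panel.

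For sex itself, 0 of 40 members passed in edgeR, DESeq2 or limma-voom, where 0.0858% of all genes did, and 2 had an unadjusted p under 0.05 (4.15% of all genes). Median Nsf, the ATPase that unwinds SNARE complexes, was 1037 CPM in females and 1142 in males (male minus female 0.11 ± 0.05, p = 0.0333), and the ranges overlapped. Stxbp5 (0.10 ± 0.05, p = 0.0441), Cplx1 (-0.15 ± 0.08), Napa (-0.07 ± 0.04) and Rab3c (0.07 ± 0.06) came after it, with 0.943 as edgeR adjusted p for each of the 5.

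Sample titles carry numbers that form 4 largely ascending runs of 18, 18, 17 and 31 animals, a possible batch. Between runs 12 of 40 members differed in edgeR, where 21.7% of all genes did, and 20 had an unadjusted p under 0.05, against 37.8% of all genes. Napb had medians of 794, 674, 672 and 611 CPM in the 4 runs (adjusted p = 0.0070), Syp 1931, 1619, 1626 and 1588 (0.0073), Syt7 325, 248, 322 and 242 (0.0086), Cplx1 545, 604, 455 and 455 (0.013) and Snap25 2189, 1848, 1560 and 1792 (0.018). Napb, Syp and Snap25 were highest in the first run, with ranges that overlapped those of the other runs.

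The 2 rows of Pclo did not move together. Their r was -0.36 (rho = -0.41, permutation p = 0.00072), and the main row rose with excitatory content (0.24) while the 3′ row did not pass (-0.05, adjusted p = 0.20). With CeA content the main row fell (-0.12, edgeR adjusted p = 0.010) and the 3′ row rose (0.11, 0.0043). The ratio of the 3′ row to the main row ran from 0.0578 to 0.349, with a median of 0.124. Over the 84 animals the log2 ratio had r = -0.82 with Bsn, -0.79 with Unc13a, -0.70 with Rims1, -0.68 with Syt7 and -0.63 with Erc2. With Snap25 r was -0.08, with Rab3a 0.18 and with the excitatory score -0.52. These are among the 17 relations named below, and the main row is itself part of the ratio. What the ratio reflects, and its part in the correlations between these genes, was not tested.

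Syt2, Vamp1 and Unc13c also moved with cholinergic genes, looked up after Syt2's partners were seen, in a family of 17 relations. Chat, which makes acetylcholine, ran from 0.0312 over 3.04 to 47.8 CPM, the vesicular acetylcholine transporter Slc18a3 from 0.0307 over 1.95 to 52.7 and the choline transporter Slc5a7 from 0.370 over 6.13 to 76.9. Syt2 had r = 0.88, 0.88 and 0.89 with them (rho = 0.89, 0.89 and 0.89), Vamp1 0.73, 0.75 and 0.75, and Unc13c 0.67, 0.68 and 0.67, each with a permutation p of 1e-05, adjusted 1.13e-05. Within runs Syt2 and Chat had 0.92, 0.86, 0.90 and 0.91, Vamp1 and Chat 0.78, 0.68, 0.79 and 0.73, and Unc13c and Chat 0.66, 0.90, 0.72 and 0.42. Without the 2 extreme animals these 3 were 0.88, 0.71 and 0.64. The part of cholinergic cells in the inhibitory content slopes of these members was not tested.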

How the data were processed

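The deposited values were read counts per gene without normalization, per the labels, from stranded poly(A) libraries of RNA with a quality score above 7. FastQC, STAR, Subread featureCounts 1.6.0 and DESeq2 on GRCm38 (mm10) are named in the submitters' processing notes. The sources used here do not give the annotation release or the strand setting. A further 3 columns of undetermined reads were not used. Sex, weekly preference and intake came from the labels.

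Genes were kept by filterByExpr (sexes as groups, minimum count 10, minimum total 15), counts were scaled by TMM, and slopes were tested with edgeR 4.0.16 (R 4.3.3, robust quasi-likelihood F-test) over all 16320 genes, with Benjamini-Hochberg adjusted p-values and a threshold of 0.05. Log2 CPM used a prior count of 2. The code was tested on simulated data. Alternatives were RLE size factors, no filter (30850 genes), limma-voom (limma 3.58.1), DESeq2 1.42.0, run or content scores as covariates, intake (per 10 g/kg) or rank of preference, and libraries left out. The members, marker lists and pathway lists were chosen with earlier results of these data known. Named were, for preference and sex, members past the threshold or else the 5 with the smallest p. For scores they were up to 6 with the largest slopes each way, for run the 5 with the smallest p, for pairs the 6 highest and 6 lowest r, and for levels the 8 highest and 8 lowest. Up to 3 pathway genes were named each way for each of the scores described.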

Additional observations from a re-analysis of the deposited data

How the results depend on the processing

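All but 3 of the recomputed counts of members called (directions together) and of pairs stayed within 1.5 times the value given, among them 0 members for each preference and sex comparison under every alternative run. The 3 that moved were the members called for inhibitory beside excitatory content, 4 against 8 with run as a covariate and 14 with the defining markers alone, and the pairs with r of at least 0.5, 26.5% against 16.4% with sex, run and the marker scores taken out. Counts by direction or at an unadjusted p moved more. Fallers for excitatory beside inhibitory content went from 4 to 1 with the defining markers alone and to 2 without the 5 libraries lowest in the score. Members at an unadjusted p under 0.05 went from 2 to 7 for mean preference in females with intake (6.95% to 9.61% of all genes). For week 13 in all animals they went from 3 to 7 with intake (6% to 12.7%) and to 0 with content scores (5.02%). For week 1 in all animals they went from 2 to 6 with rank of preference (3.25% to 5.55%). Of 1049 recomputed values of the members and pairs that the naming rule picks, 1016 kept their direction and side of the threshold (pairs: within 0.1 of r), 21 lost a call, 10 pairs moved further in r, and 2 changed sign: Doc2b on mean preference (0.013 with content scores as covariates) and r of Stx1a with Vamp1 (0.26 with sex, run and the scores taken out). The 1049 include the preference and sex fits, where 0 members were called under every alternative, so that only the direction of a slope differed there. Outside the naming rule, slopes on excitatory content changed sign without the 5 lowest libraries for Cplx1 (-0.08 to 0.05), Rab3c (0.05 to -0.01), Syt9 (0.01 to -0.08) and Rph3a (0.01 to -0.05), of which Cplx1 alone had been called. The cause of these changes was not tested. Over all genes, calls went from 921 to 3754 for inhibitory beside excitatory content with the defining markers alone, from 5210 to 3187 for excitatory beside inhibitory content without the 5 libraries lowest in the score, and from 5087 to 3058 for CeA content with run as a covariate. For week 13 in females they went from 0.0368% of all genes to 3.5% with intake and to 1.26% in DESeq2, for week 13 in all animals from 0% to 0.411% with intake, and for mean preference in females from 0% to 1.26% with intake. No paired analysis was possible because replicate numbers follow the listing order and pair no animals. The striatal and CeA scores and the fits without the lowest libraries were chosen after seeing the data. Low counts limit Syn3, Cplx3, Syt2 and Sv2c most, and family and lane could not enter a fit.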
